A study of Mus musculus with 12 samples.

Results

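Cytokine receptor genes were followed in bulk RNA sequencing of Cx3cr1+ macrophages from mouse lung, and the set holds Csf1r, Csf2ra, Csf2rb, Il7r, Il10ra, Il6ra, Ifngr1, Ifngr2, Tgfbr1 and Tgfbr2. They are 10 of the 52636 genes in the deposited count table, chosen by symbol, and all 10 were among the 16679 genes with enough counts to be tested. Where identifiers share a symbol the total count decides between them, which was never needed because no symbol of the 10 repeats. The symbols themselves were chosen with earlier results of these data known. Those results included the Il7r difference and the 2 libraries left out together below. There were 3 groups of 4 libraries: bleomycin-treated lungs labelled as lacking the IL-4 receptor alpha chain (bleomycin KO), bleomycin-treated lungs labelled wild type for it (bleomycin WT), and saline-treated lungs labelled wild type (saline WT). Bleomycin damages the lung, and fibrosis follows in mice. No saline KO group was analysed here. The sources used here do not give the promoter or Cre behind the deletion, the age and sex of the animals, or the dose and time of bleomycin. Nothing in the labels says that the libraries of a group come from separate animals, so the p-values cover only how much these libraries differ, which may be technical.

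Cytokine receptors of macrophages fall into a few families. CSF1 and IL-34 signal through the receptor tyrosine kinase CSF1R, which macrophages need for survival. GM-CSF binds an alpha chain (Csf2ra) paired with the common beta chain (Csf2rb) and is required for alveolar macrophages to form. The IL-7 receptor alpha chain (Il7r) pairs with the common gamma chain for IL-7 or with Crlf2 for TSLP. It is best known on lymphocytes, and macrophages can also make it. IL-10 receptor alpha (Il10ra) carries the signal that restrains inflammatory macrophages, and IL-6 receptor alpha (Il6ra) signals through gp130. Interferon gamma acts through Ifngr1, which binds the ligand, and Ifngr2, which is needed to signal. TGF-beta binds Tgfbr2, which then activates the kinase Tgfbr1, a route long studied in lung fibrosis.

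The promoter windows of Il7r and Csf2ra are shown because Il7r was the receptor gene with the highest fold difference between bleomycin and saline libraries, and Csf2ra is a contrasting receptor gene whose groups overlapped. Both are RefSeq windows in GRCm38.p6, from 250 bases before to 50 after the annotated start, read 5′ to 3′ on the gene's strand. Il7r lies at chr15:9529827-9530126 (minus strand) and Csf2ra at chr19:61228369-61228668 (minus strand). Capitals mark the motif matches described next.
Il7r: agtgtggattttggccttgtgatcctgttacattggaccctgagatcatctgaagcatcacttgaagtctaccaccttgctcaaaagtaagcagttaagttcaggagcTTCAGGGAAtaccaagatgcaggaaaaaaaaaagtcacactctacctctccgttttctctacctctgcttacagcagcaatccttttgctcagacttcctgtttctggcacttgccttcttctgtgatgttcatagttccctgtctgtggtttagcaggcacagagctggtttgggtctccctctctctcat
Csf2ra: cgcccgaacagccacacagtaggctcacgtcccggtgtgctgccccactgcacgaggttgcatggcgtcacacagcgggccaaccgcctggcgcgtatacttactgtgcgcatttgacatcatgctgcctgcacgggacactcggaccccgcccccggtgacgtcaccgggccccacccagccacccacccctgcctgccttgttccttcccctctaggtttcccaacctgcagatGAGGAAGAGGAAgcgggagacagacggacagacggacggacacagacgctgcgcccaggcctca

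The Il7r window was poor in CpG, with 1 CpG and a GC content of 45.7%. Only 5.43% of 32851 mouse promoter windows of the same length held fewer CpG, and the median window held 7. It had 1 match to TTCNNNGAA, the letters bound by STAT factors, which starts 142 bases before the start site (position -142); 8.3% of windows hold such a match. The start of Il7r in GENCODE vM21, at base 9530176 of chromosome 15, lies outside this window. On the minus strand the whole window is downstream of that start, within the GENCODE gene, so position -142 counts from the RefSeq start only. Csf2ra had 23 CpG and 2 adjoining matches to GAGGAA, the core bound by PU.1, at positions -14 and -8; 28.3% of windows hold at least 1. Of the 10 receptor genes, 7 had a window. The main windows of Il6ra, Ifngr1, Ifngr2, Tgfbr1 and Tgfbr2 held 14 to 34 CpG, while a second start of Tgfbr1 held 3. Both strands were searched. The other letters searched were TGANTCA of AP-1, held by 7.81% of windows, the ETS-type CCGGAA, held by 14.9%, TATAAA, held by 13.6%, and the E-box CACGTG, held by 7.15%. The letters of PU.1 are also of ETS type. Il6ra held GAGGAA (on the other strand) and CACGTG, Tgfbr2 held GAGGAA, and the second Tgfbr1 start held GAGGAA. A match is a description of the letters and not a binding site.

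Saline WT 2 and bleomycin WT 4 bear on nearly every value below. The first held 60598 counts in all, against 3534193 to 18051113 in the other 11 libraries. Levels are given in CPM, the count as a share of the TMM-scaled library size, and in saline WT 2 a single count is worth 10.8 CPM and 3 counts are worth 32.4 CPM. Bleomycin WT 4 had a TMM factor of 0.579 and correlated with its nearest library at a Spearman coefficient of 0.730 across genes, where the other bleomycin libraries reached 0.939 to 0.986. Bleomycin KO 1 and bleomycin WT 2 were each other's nearest library, at 0.986, across the genotype labels. Il4ra, the gene named in the labels, had 473, 277, 235 and 343 CPM in bleomycin KO, 351, 626, 302 and 138 CPM in bleomycin WT, and 111, 32.4, 262 and 302 CPM in saline WT. Its counts did not separate the genotypes (log2 fold change -0.09, SE 0.58, for bleomycin KO against bleomycin WT). They include any exons outside a deleted part, so they are no check of the labels, and KO always means libraries with that label. The macrophage markers (10 genes) summed to 46422 to 67151 CPM in bleomycin KO, 28772 to 50113 CPM in bleomycin WT, against 14182 to 32505 CPM in saline WT. Lyz2 led them, and Mertk stood at 0 in saline WT 2.

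**Figure D1:**
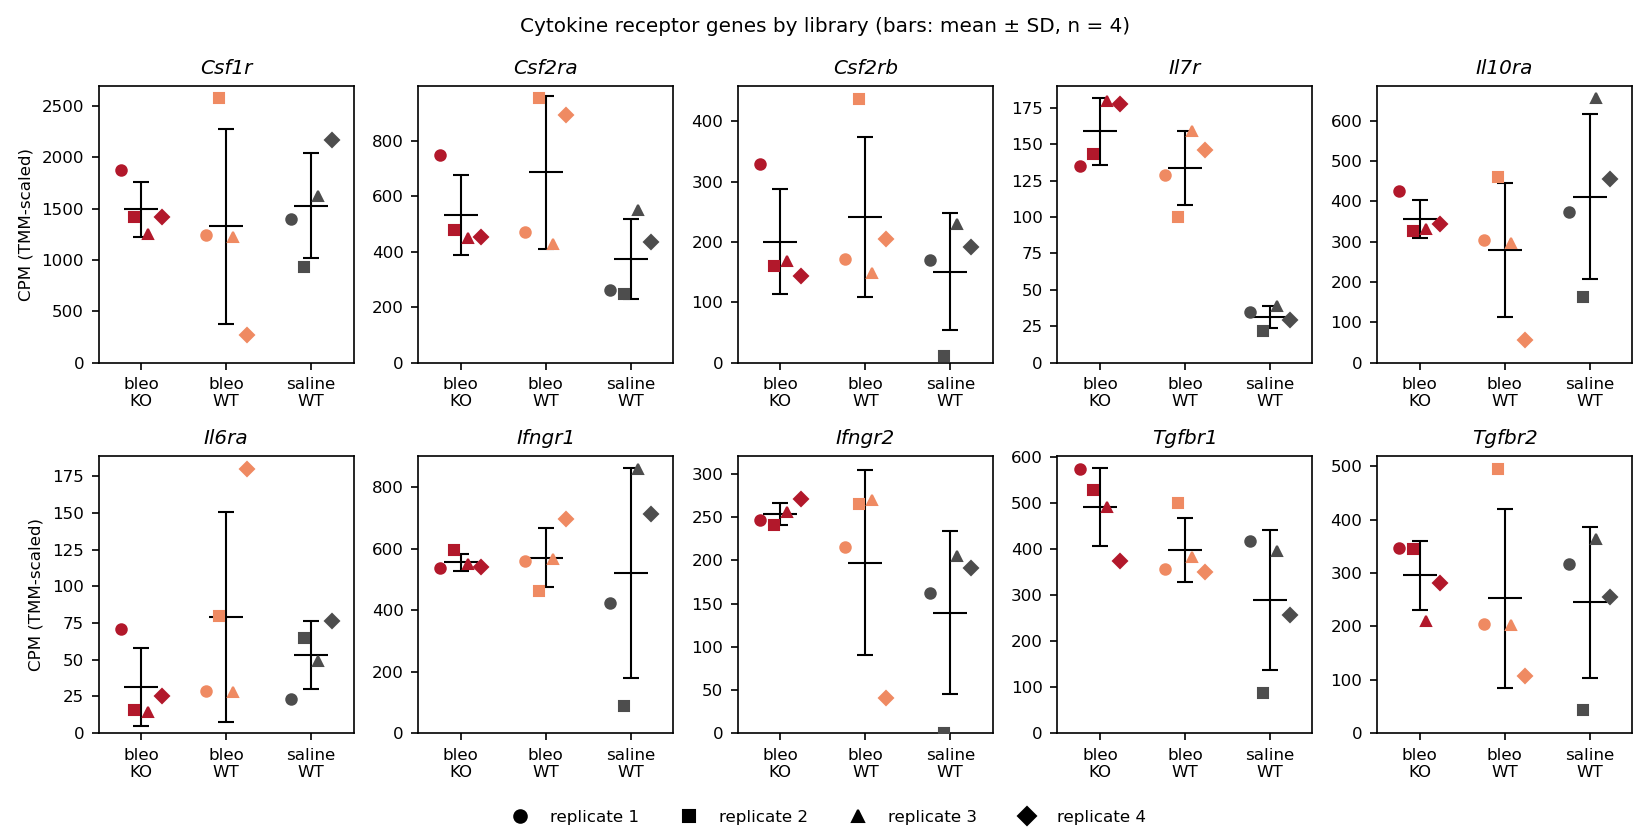
CPM of the 10 receptor genes in each library (points, shaped by replicate number), with the mean and SD of each group of 4; groups run from bleomycin KO to bleomycin WT to saline WT, and each panel has its own linear axis from 0. Il7r is the panel in which all 8 bleomycin libraries lie above all 4 saline libraries.

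Il7r, the IL-7 receptor alpha chain, was the receptor gene that stood apart. It had 135, 144, 180 and 178 CPM in bleomycin KO, 129, 100.3, 159 and 146 CPM in bleomycin WT, and 34.8, 21.6, 38.8 and 29.5 CPM in saline WT. Every one of the 8 bleomycin libraries lay above every saline library, and the lowest of them was bleomycin WT 2. The gene (ENSMUSG00000003882) lies on chromosome 15 from 9505788 to 9530176 on the minus strand in GRCm38 and is protein-coding. Depth was ample in 11 libraries, with 1558 to 2322 counts in bleomycin KO, 822 to 1963 in bleomycin WT, and 143, 378 and 204 in saline WT 1, 3 and 4. Saline WT 2 held 2 counts, which is under its limit of 3.

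The group means of Il7r (± SD, n = 4 each) were 159 ± 23.1 CPM in bleomycin KO, 134 ± 25.5 CPM in bleomycin WT, against 31.2 ± 7.40 CPM in saline WT. Its spread was small beside that of most other receptor genes: the coefficient of variation was 14.5%, 19.1% and 23.7% in the 3 groups in that order. The difference was 4.12-fold in bleomycin WT against saline WT (95% interval 2.15 to 7.91; log2 fold change 2.04, SE 0.44). It was 4.90-fold in bleomycin KO against saline WT (interval 2.54 to 9.46; log2 fold change 2.29, SE 0.45). Both comparisons share the saline libraries, so they are not independent of each other. The contrast of Il7r in WT libraries was known from earlier work on these data.

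Across all genes, these differences did not pass the threshold of 0.05 in the main test. In edgeR's quasi-likelihood fit with Benjamini-Hochberg adjustment the adjusted p was 0.162 in bleomycin WT against saline WT (unadjusted p 0.000285) and 0.171 in bleomycin KO against saline WT (unadjusted p 9.77e-05). With 0 of 10 receptor genes called in either comparison, the background was 0.024% of tested genes called in bleomycin WT against saline WT and 0.018% in bleomycin KO against saline WT. Without saline WT 2 and bleomycin WT 4, Il7r rose in both, 3.70-fold in bleomycin WT (edgeR adjusted p 0.0169, log2 fold change 1.89, SE 0.25) and 4.58-fold in bleomycin KO (edgeR adjusted p 0.0111, log2 fold change 2.19, SE 0.25). Of the 18812 genes then tested, 0.431% were called in bleomycin WT and 0.643% in bleomycin KO. DESeq2 and limma-voom with quality weights called Il7r as well over 12 libraries, in bleomycin WT (3.07% and 1.91% of tested genes called) and in bleomycin KO (2.22% and 1.39%), each against saline WT. In bleomycin KO against saline WT, edgeR also called it without the low count filter (1.7% called), without saline WT 2 alone (0.054%) and without bleomycin WT 4 alone (0.0982%). Il7r is 1 of 503 genes, 3.02% of those tested, whose 8 bleomycin libraries all lie above the 4 saline ones.

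The genotype contrast of Il7r was small. It was 0.25 on the log2 scale in bleomycin KO against bleomycin WT (SE 0.42, 95% interval -0.63 to 1.13) and did not pass the test (edgeR adjusted p 0.9998). KO and WT libraries overlapped. In fold terms the interval runs from 0.645 to 2.19, so the data allow a genotype difference of any size within those bounds. Without the 2 libraries above it was 0.31 (interval -0.20 to 0.81).

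The partners and ligands of Il7r had smaller fold changes against saline WT than Il7r, and none passed the test. Il2rg, the common gamma chain, had 170 to 260.0 CPM in bleomycin KO, 160 to 213 CPM in bleomycin WT, and 159, 21.6, 147 and 143 CPM in saline WT. Its bleomycin libraries all lay above the saline ones, by a narrow margin over saline WT 1, and its log2 fold changes of 0.72 (KO) and 0.56 (WT) against saline had edgeR adjusted p of 0.715 and 0.624. Crlf2, the TSLP partner chain, averaged (± SD, n = 4 each) 62.8 ± 11.7 CPM in bleomycin KO, 63.1 ± 30.3 CPM in bleomycin WT, against 62.2 ± 9.00 CPM in saline WT. Transcripts of the ligands were sparse: Il7 had 1.24 to 7.97 CPM across the 8 bleomycin libraries and 0 to 4.92 CPM in saline WT, and Tslp had 1.07 to 3.76 CPM in bleomycin KO, 0.162 to 9.24 CPM in bleomycin WT, against 0 to 9.73 CPM in saline WT. Of the 10 other genes listed for the IL-7 and TSLP axis, all were tested, 0 rose and 0 fell in any comparison, and the median log2 fold change was 0.04 in bleomycin WT against saline WT, where the median of all tested genes was 0.08. Mcl1, a survival factor downstream of the receptor, was highest in bleomycin WT 4 at 2407 CPM, against 763 to 1223 CPM in the other bleomycin WT libraries.

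Because Il7r is made by lymphocytes and innate lymphoid cells, 14 markers of T, NK and innate lymphoid cells were set beside it. They summed to 381 to 791 CPM in bleomycin KO, 385 to 1492 CPM in bleomycin WT, against 75.7 to 578 CPM in saline WT, so the groups overlapped. Cd2 added to that overlap, with 160, 0, 169 and 157 CPM in saline WT. It had 48.2 to 102 CPM in bleomycin KO and 49.0 to 112 CPM in bleomycin WT. Within bleomycin KO the libraries had the same order by this sum (381, 622, 791 and 646 CPM in KO 1 to 4) as by Il7r. In bleomycin WT the sums were 602, 385, 567 and 1492 CPM and in saline WT 415, 75.7, 510 and 578 CPM. The library lowest in Il7r was also the lowest in this sum in each group, being KO 1, bleomycin WT 2 and saline WT 2, while the library highest in each was the same in bleomycin KO alone. None of the 14 passed the test in any comparison, 13 of 14 log2 fold changes were positive against saline in each genotype, and their medians were 1.09 in bleomycin WT and 0.86 in bleomycin KO, beside 0.08 and 0.04 over all tested genes. Without saline WT 2 and bleomycin WT 4 these medians were 0.57 and 0.61, beside -0.14 and -0.15. In bleomycin WT 0 of 14 lay wholly above saline WT, beside 4.93% of tested genes, and in bleomycin KO 2 of 14 did, beside 8.17%. The T cell genes were present in most libraries (Cd3e at 32.6 to 47.7 CPM in bleomycin KO, 1.60 to 46.0 CPM in bleomycin WT, against 0 to 27.1 CPM in saline WT), and 10 of the 14 were at 0 in saline WT 2. The sum of macrophage markers was also higher in bleomycin KO than in saline WT, with no overlap. Lyz2 led that sum, with 34559 to 55533 CPM in bleomycin KO against 9318 to 28124 CPM in saline WT. Of the 10 genes 8 had a positive log2 fold change against saline in each genotype. Cx3cr1 averaged lower under bleomycin, at 97.3 ± 16.1 (KO) and 57.0 ± 43.3 CPM (WT), against 343 ± 401 CPM in saline WT. Its libraries overlapped, and saline WT 2 was the highest at 940 CPM. Itgam averaged 102 ± 20.9, 117 ± 53.7 and 129 ± 71.8 CPM in the same order. The summed markers of neutrophils and of lung epithelium were lower under bleomycin. The neutrophil sum (9 genes) was 989 to 1545 CPM in bleomycin KO, 544 to 1335 CPM in bleomycin WT and 2385 to 27306 CPM in saline WT. The epithelial sum (7 genes) was 171 to 644 CPM in bleomycin KO, 263 to 874 CPM in bleomycin WT and 1465 to 2347 CPM in saline WT. Both sums were thus lower in all 8 bleomycin libraries than in any saline library. Of the 7 epithelial genes, 2 had a positive log2 fold change against saline in bleomycin WT and 1 in bleomycin KO. Cdh1 averaged higher under bleomycin than in saline WT, where it had 0 to 45.1 CPM. It had 35.4 to 95.1 CPM in bleomycin KO and 37.5 to 138 CPM in bleomycin WT, so its libraries overlapped. Ly6g, a defining neutrophil marker, was at 0 in bleomycin KO 2, bleomycin WT 4 and saline WT 1 and 2. The part of these cell types in the Il7r difference was not tested, and in bulk RNA fewer cells of a type cannot be told apart from less RNA per cell.

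**Figure D2:**
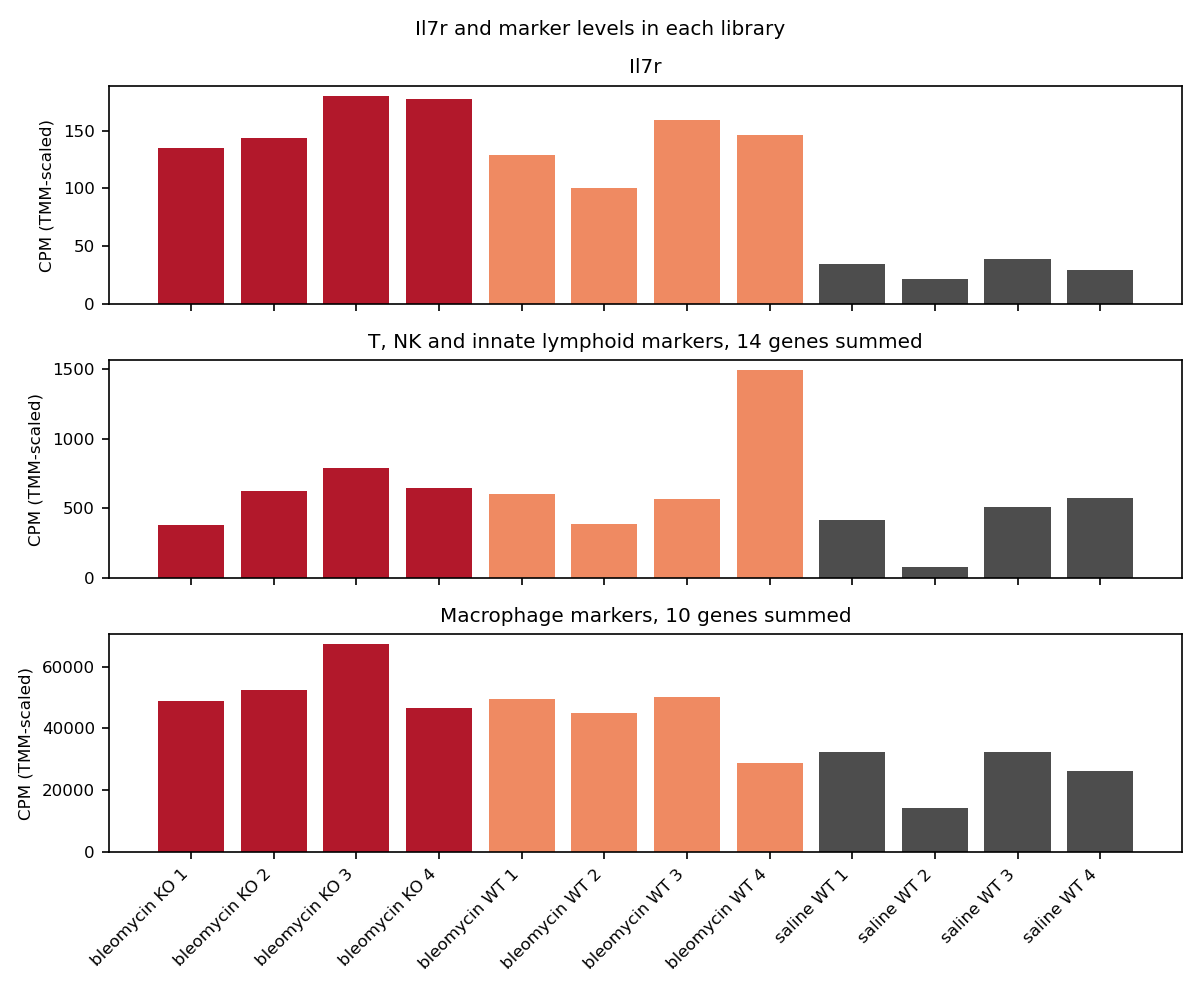
CPM of Il7r (top), the summed CPM of 14 T, NK and innate lymphoid markers (middle) and the summed CPM of 10 macrophage markers (bottom) in each of the 12 libraries, on linear axes from 0. Il7r separates the 8 bleomycin libraries from the 4 saline ones, while the lymphoid sum overlaps between groups and peaks at 1492 CPM in bleomycin WT 4.

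Ccl9 and Il1rn followed Il7r most closely over the 11 libraries other than saline WT 2, among 9339 genes with a mean of at least 10 CPM. Ccl9, a CC chemokine, had a Pearson r of 0.990 on log2 CPM, and Il1rn, the secreted antagonist of the IL-1 receptor, had 0.967. Ccl9 averaged (± SD, n = 4 each) 1106 ± 125 CPM in bleomycin KO, 961 ± 188 CPM in bleomycin WT, against 347 ± 32.5 CPM in saline WT, and Il1rn averaged 1288 ± 135, 1030 ± 181 and 370 ± 164 CPM in the same order. Over the 8 bleomycin libraries alone, r was 0.856 for Ccl9 and 0.686 for Il1rn. These are descriptions of 11 and 8 libraries that share treatment and depth.

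The colony-stimulating factor receptors were abundant and differed between libraries more than between groups. Csf1r, the receptor for CSF1 and IL-34, had 1878, 1421, 1256 and 1421 CPM in bleomycin KO, 1242, 2579, 1220 and 273 CPM in bleomycin WT, and 1402, 930, 1618 and 2164 CPM in saline WT. The 273 CPM of bleomycin WT 4 was the lowest of the 12 libraries and bleomycin WT 2 the highest, and the groups overlapped. Its log2 fold change was -0.20 (SE 0.51) in bleomycin WT against saline WT, -0.04 (SE 0.51) in bleomycin KO against saline WT and 0.17 (SE 0.51) in bleomycin KO against bleomycin WT. The last of these was -0.16 without saline WT 2 and bleomycin WT 4.

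Csf2ra, the GM-CSF receptor alpha chain, had 750, 477, 451 and 454 CPM in bleomycin KO, 472, 954, 428 and 893 CPM in bleomycin WT, and 262, 249, 550 and 435 CPM in saline WT. The highest saline library overlapped the lower bleomycin ones, and within the bleomycin groups KO 1, WT 2 and WT 4 were well above the other 5. It had the second highest fold change of the 10 in bleomycin WT against saline WT, 1.83-fold (95% interval 0.972 to 3.43; log2 fold change 0.87, SE 0.43, edgeR adjusted p 0.359). The log2 fold change was 0.50 (SE 0.43, edgeR adjusted p 0.788) in bleomycin KO against saline WT and -0.37 (SE 0.43) in bleomycin KO against bleomycin WT.

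Csf2rb, the common beta chain, had 330, 160, 168 and 143 CPM in bleomycin KO, 172, 437, 149 and 205 CPM in bleomycin WT, and 169, 10.8, 230 and 192 CPM in saline WT. Bleomycin WT 2 and bleomycin KO 1 were the highest, as they were nearest each other over all genes, and the 10.8 CPM in saline WT 2 is 1 count. The 3 log2 fold changes lay between -0.27 (SE 0.61, bleomycin KO against bleomycin WT) and 0.63 (SE 0.61, bleomycin WT against saline WT). Csf2rb has a near-identical neighbour, Csf2rb2, and the treatment of reads that match both is not stated in the labels or files, so both are uncertain. Csf2rb2 averaged (± SD, n = 4 each) 52.8 ± 20.8 CPM in bleomycin KO, 58.4 ± 42.0 CPM in bleomycin WT, against 25.5 ± 14.2 CPM in saline WT, with an edgeR adjusted p of 0.415 in bleomycin WT against saline WT.

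Per kb of exonic length, the ratio of Csf2ra to Csf2rb was 5.86 to 8.18 in bleomycin KO, 5.63 to 11.2 in bleomycin WT and 3.99 to 6.15 in saline WT 1, 3 and 4. The 11.2 belongs to bleomycin WT 4, and saline WT 2 gave 59.3 on 1 count of Csf2rb. Csf1r to Csf2ra was 0.948 to 1.18 in bleomycin KO, 0.997 to 1.08 in bleomycin WT 1, 2 and 3, 0.116 in bleomycin WT 4, and 1.11 to 2.03 in saline WT. Among the 21 other genes of the CSF axis, 17 were tested, and 0 rose and 0 fell in any comparison. Csf1 averaged 35.1 ± 19.7 CPM in bleomycin KO, 32.5 ± 7.88 CPM in bleomycin WT, against 27.8 ± 35.5 CPM in saline WT, while Csf2 was at most 4.90 CPM in bleomycin libraries and 11.4 CPM in saline WT 1. Il34, Il3 and Il5 did not reach the minimum for a test. Cish, a feedback inhibitor induced through STAT5, had 119, 65.9, 64.8 and 77.5 CPM in bleomycin KO and 20.2, 54.0, 36.3 and 48.4 CPM in saline WT, with no overlap; its log2 fold change was 1.10 (edgeR adjusted p 0.627) there and 1.66 (edgeR adjusted p 0.254) in bleomycin WT against saline WT. Csf3r, the G-CSF receptor of neutrophils, reached 1638 and 1034 CPM in saline WT 3 and 4 and at most 349 CPM elsewhere. Those 2 libraries also held the highest neutrophil marker sums, 27306 and 16447 CPM.

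**Figure D3:**
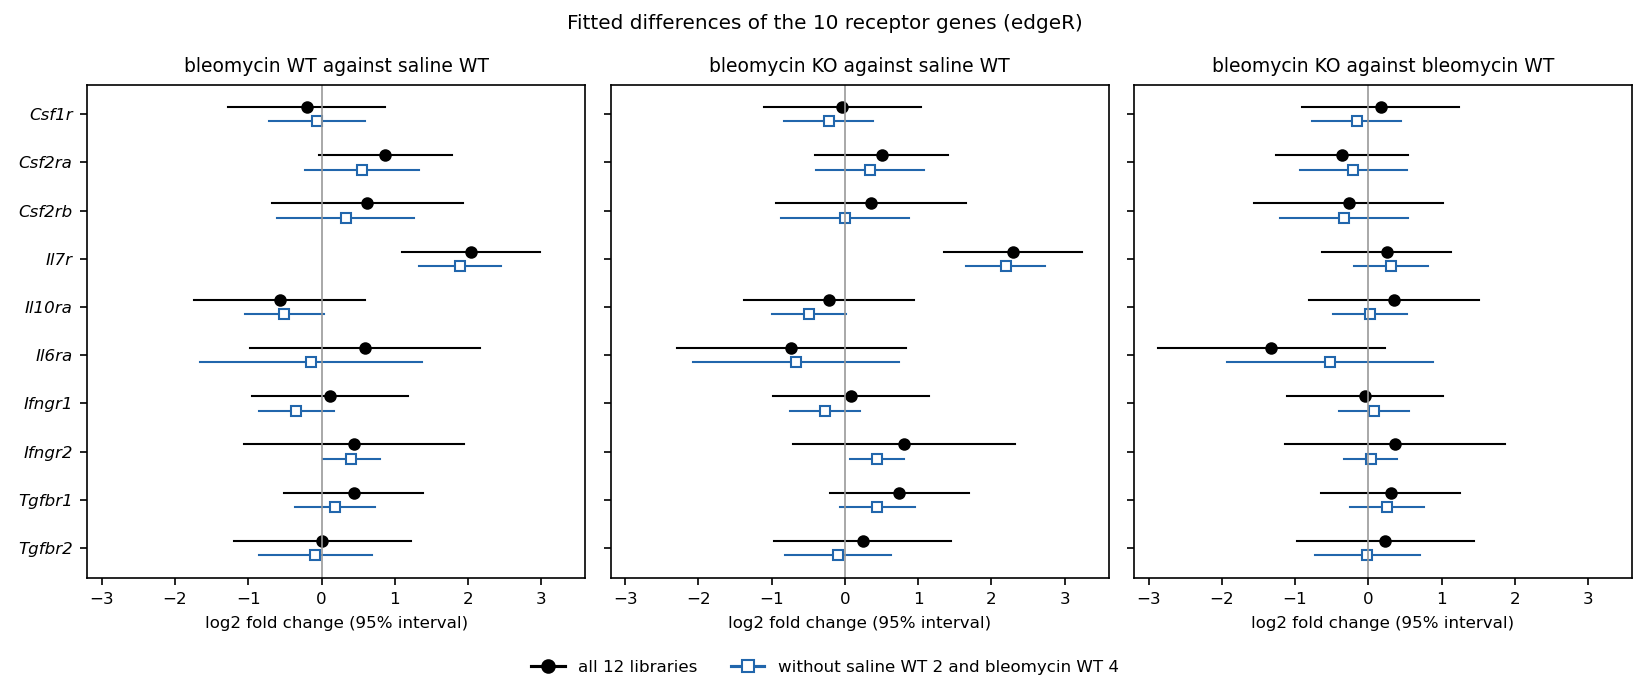
Log2 fold changes of the 10 receptor genes with 95% intervals from edgeR, in bleomycin WT against saline WT, bleomycin KO against saline WT, and bleomycin KO against bleomycin WT; filled circles use all 12 libraries and open squares leave out saline WT 2 and bleomycin WT 4. Il7r lies clear of 0 in both comparisons with saline, at 2.04 and 2.29 over 12 libraries, and all 10 intervals of bleomycin KO against bleomycin WT contain 0.

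Il10ra, the ligand-binding chain for IL-10, had negative log2 fold changes against saline in both bleomycin groups, which did not pass the test. It had 426, 327, 330 and 344 CPM in bleomycin KO, 303, 461, 298 and 56.7 CPM in bleomycin WT, and 373, 162, 657 and 456 CPM in saline WT. The groups overlapped, the lowest library was bleomycin WT 4 and the highest saline WT 3. Its log2 fold change against saline was -0.57 (SE 0.55, edgeR adjusted p 0.658) in bleomycin WT and -0.22 (SE 0.55, edgeR adjusted p 0.942) in bleomycin KO. Without saline WT 2 and bleomycin WT 4 these were -0.51 (95% interval -1.05 to 0.04) and -0.49 (interval -0.99 to 0.02), with edgeR adjusted p of 0.383 and 0.315.

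Il6ra, the IL-6 receptor alpha chain, was the lowest of the 10 per kb in each group. Its coefficient of variation, 85.0% in bleomycin KO and 90.5% in bleomycin WT, was the highest of the 10 in those groups, and it was 43.5% in saline WT. It had 70.9, 15.6, 14.1 and 25.4 CPM in bleomycin KO, 28.7, 79.7, 27.7 and 180 CPM in bleomycin WT, and 22.9, 64.9, 48.9 and 76.3 CPM in saline WT. Bleomycin KO 2 and 3 were the lowest of the 12 libraries and bleomycin WT 4 the highest. Bleomycin KO against bleomycin WT gave -1.32 on the log2 scale (SE 0.73, edgeR adjusted p 0.9998), which was -0.52 (SE 0.63) without bleomycin WT 4 and saline WT 2. Leaving out single libraries moved it both ways, to -0.54 without bleomycin WT 4 and to -2.10 (SE 0.80, unadjusted p 0.0176, edgeR adjusted p 1) without bleomycin KO 1. Against saline WT it was 0.59 (SE 0.74) in bleomycin WT and -0.73 (SE 0.74) in bleomycin KO.

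Of the 13 other genes of the IL-10 and IL-6 axis, all were tested and 0 passed in any comparison over 12 libraries. Their median log2 fold change was 1.35 in bleomycin WT against saline WT, with 12 of 13 positive, and 0.87 in bleomycin KO against saline WT, with 13 of 13 positive, where the medians of all tested genes were 0.08 and 0.04. The 13 include Il4ra, and Il10, Il6, Il10rb, Adam10, Tyk2, Stat3, Bcl3 and Nfil3 were at 0 in saline WT 2. Without saline WT 2 and bleomycin WT 4 the medians of the 13 were 0.63 in bleomycin WT and 0.55 in bleomycin KO, beside -0.14 and -0.15 over all genes then tested. Socs3, the feedback inhibitor induced through STAT3, had 810, 544, 466 and 446 CPM in bleomycin KO, 477, 757, 528 and 308 CPM in bleomycin WT, and 203, 97.3, 176 and 254 CPM in saline WT. Its bleomycin libraries all lay above the saline ones (log2 fold change 1.48, edgeR adjusted p 0.219 in WT; 1.61, adjusted p 0.232 in KO), and without saline WT 2 and bleomycin WT 4 it rose in bleomycin KO by a log2 fold change of 1.41 (edgeR adjusted p 0.0473). Il6 had 110.5, 121, 173 and 120 CPM in bleomycin KO, 115, 47.1, 64.8 and 353 CPM in bleomycin WT, and 87.6, 0, 38.0 and 17.5 CPM in saline WT, and its bleomycin KO libraries lay above all saline ones. The signalling partner chains differed in evenness. Il10rb had 191 to 227 CPM in bleomycin KO, 165 to 225 CPM in bleomycin WT 1, 2 and 3 and 166 to 195 CPM in saline WT 1, 3 and 4, but 1216 CPM in bleomycin WT 4. Il6st, which encodes gp130, averaged (± SD, n = 4 each) 97.6 ± 27.7 CPM in bleomycin KO, 128 ± 51.8 CPM in bleomycin WT, against 58.4 ± 58.4 CPM in saline WT. Il10 itself averaged 43.9 ± 11.7, 42.4 ± 21.5 and 25.2 ± 17.3 CPM in the same order of groups.

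The interferon gamma receptor chains were the steadiest of the 10 in bleomycin KO. Ifngr1, the ligand-binding chain, had 536, 595, 552 and 541 CPM in bleomycin KO, 559, 461, 568 and 698 CPM in bleomycin WT, and 424, 86.5, 859 and 714 CPM in saline WT. Its coefficient of variation was 4.85% in bleomycin KO, 17.0% in bleomycin WT and 65.5% in saline WT, where saline WT 2 gave 86.5 CPM on few counts. The 3 log2 fold changes lay between -0.04 and 0.12 (SE 0.50 each), and without saline WT 2 and bleomycin WT 4 they lay between -0.35 and 0.08.

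Ifngr2, the signalling chain, had 247, 241, 256 and 271 CPM in bleomycin KO, 215, 265, 270 and 40.5 CPM in bleomycin WT, and 162, 0, 205 and 191 CPM in saline WT. The 4 bleomycin KO libraries and bleomycin WT 1, 2 and 3 all lay above all saline libraries, while bleomycin WT 4 lay below 3 of them. Saline WT 2 had 0 counts, which allows up to 32.4 CPM. Bleomycin KO against saline WT gave 0.80 on the log2 scale (SE 0.71, edgeR adjusted p 0.796) over 12 libraries. Leaving out saline WT 2 and bleomycin WT 4 gave 1.35-fold (95% interval 1.05 to 1.74; log2 fold change 0.44, SE 0.17, edgeR adjusted p 0.229) in bleomycin KO and 1.32-fold (interval 1.01 to 1.73; edgeR adjusted p 0.343) in bleomycin WT. Il7r and Ifngr2 were the 2 of 10 receptor genes whose bleomycin KO libraries all lay above saline WT, where 8.17% of tested genes did so; for bleomycin WT against saline WT it was Il7r alone, where 4.93% did so. Wholly below saline WT lay 0 of the 10, beside 1.04% of tested genes in bleomycin KO and 0.929% in bleomycin WT.

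The proportion of the interferon gamma receptor chains differed between saline and most bleomycin libraries. Per kb, the ratio of Ifngr1 to Ifngr2 was 3.07 to 3.81 in bleomycin KO, 2.68 to 4.00 in bleomycin WT 1, 2 and 3, and 4.04 to 6.45 in saline WT 1, 3 and 4. These 3 saline values lay above all 7 of those bleomycin values, by a narrow margin for saline WT 1. The ratio was 26.5 in bleomycin WT 4, and saline WT 2 gave none. Of the 14 other genes of the axis 13 were tested, and 0 rose and 0 fell. Ifng itself was at most 5.34 CPM in the bleomycin libraries and 0 to 9.12 CPM in saline WT. Among its targets, Irf1 averaged 280 ± 56.0 CPM in bleomycin KO, 236 ± 37.7 CPM in bleomycin WT, against 270 ± 12.8 CPM in saline WT. The chemokine Cxcl9 had 15.5, 18.5, 31.7 and 15.04 CPM in bleomycin KO, 6.69, 9.45, 18.3 and 0.533 CPM in bleomycin WT, and 66.4, 216, 11.6 and 22.6 CPM in saline WT, with overlapping libraries (log2 fold change -3.02 in bleomycin WT, edgeR adjusted p 0.233). Gbp3, a guanylate-binding protein, had 80.7 to 107 CPM in bleomycin KO, 7.11 to 68.8 CPM in bleomycin WT, against 32.4 to 50.4 CPM in saline WT, so its bleomycin KO libraries lay above both other groups; the log2 fold change against bleomycin WT was 0.86 (SE 0.59, edgeR adjusted p 0.9998).

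The TGF-beta receptors showed no difference beyond the spread between libraries. Tgfbr1, the kinase that phosphorylates SMAD2 and SMAD3, had 573, 527, 491 and 373 CPM in bleomycin KO, 357, 499, 383 and 351 CPM in bleomycin WT, and 418, 86.5, 394 and 255 CPM in saline WT. Bleomycin KO 1, 2 and 3 lay above all saline libraries and KO 4 among them. Its log2 fold change was 0.74 (SE 0.45, 95% interval -0.21 to 1.70, edgeR adjusted p 0.674) in bleomycin KO against saline WT, 0.44 (SE 0.45, edgeR adjusted p 0.678) in bleomycin WT against saline WT and 0.30 (SE 0.45) in bleomycin KO against bleomycin WT. The first was 0.44 (interval -0.07 to 0.95) without saline WT 2 and bleomycin WT 4.

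Tgfbr2, the ligand-binding chain, had 346, 346, 210.1 and 281 CPM in bleomycin KO, 204, 496, 203 and 107 CPM in bleomycin WT, and 317, 43.2, 363 and 255 CPM in saline WT. Bleomycin WT 2 was the highest library and saline WT 2 the lowest, with full overlap of the groups. The log2 fold changes were 0.24, 0.01 and 0.23 (SE 0.57 each) in bleomycin KO against saline WT, bleomycin WT against saline WT and bleomycin KO against bleomycin WT. Per kb, the ratio of Tgfbr1 to Tgfbr2 was 1.70 to 2.98 in bleomycin KO, 1.29 to 4.18 in bleomycin WT and 1.28 to 2.55 in saline WT, again highest in bleomycin WT 4.

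All 27 other genes of the TGF-beta axis were tested, and 0 rose and 0 fell in any comparison. Tgfb1, the main ligand made by macrophages, had 191, 91.4, 79.4 and 74.6 CPM in bleomycin KO, 90.9, 278, 95.6 and 72.7 CPM in bleomycin WT, and 96.6, 54.0, 136 and 129 CPM in saline WT, and was highest in bleomycin WT 2 and KO 1. Tgfbi, a secreted protein induced by TGF-beta, had 1983, 1571, 1244 and 1378 CPM in bleomycin KO, 1149, 2531, 1579 and 1482 CPM in bleomycin WT, and 652, 227, 936 and 826 CPM in saline WT. All 8 of its bleomycin libraries lay above the 4 saline ones, with log2 fold changes of 1.22 (SE 0.43, edgeR adjusted p 0.404) in KO and 1.34 (SE 0.43, edgeR adjusted p 0.229) in WT. Ltbp3, a latent TGF-beta binding protein, differed by 4.53 on the log2 scale in bleomycin WT against saline WT (SE 1.30, edgeR adjusted p 0.219), but at low levels of 17.9, 49.1, 6.74 and 132 CPM in bleomycin WT and 0.243, 0, 4.72 and 1.74 CPM in saline WT. The co-receptor Tgfbr3 had 7.72, 0, 2.71 and 3.53 CPM in bleomycin KO and 17.5, 0, 31.5 and 35.3 CPM in saline WT (log2 fold change -2.73, SE 1.09, edgeR adjusted p 0.470). Pmepa1, a feedback inhibitor of TGF-beta signalling, was the gene of this axis with the smallest p between genotypes (log2 fold change -1.87, SE 0.82, edgeR adjusted p 0.9998), with 15.8 to 26.7 CPM in bleomycin KO, 18.3 to 39.7 CPM in bleomycin WT 1, 2 and 3, and 211 CPM in bleomycin WT 4. The feedback inhibitor Skil and the latency protein Nrros were likewise highest in bleomycin WT 4, at 2618 and 3787 CPM, against at most 448 and 923 CPM in the other bleomycin WT libraries.

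**Figure D4:**
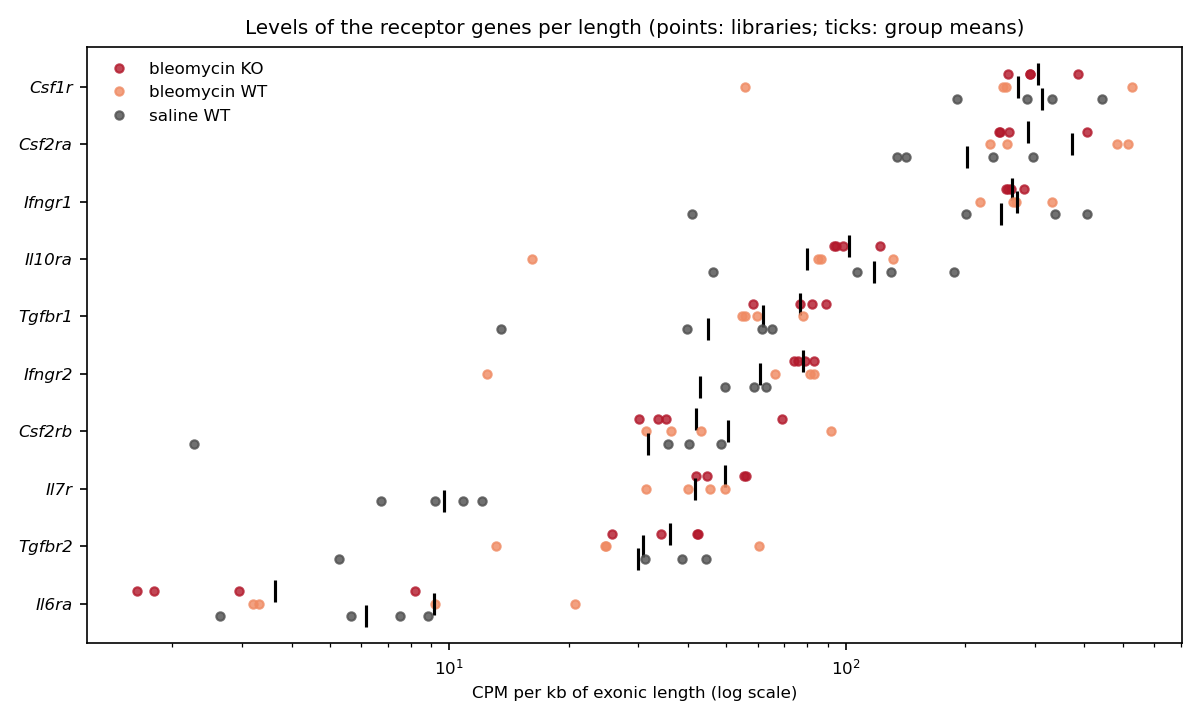
CPM per kb of exonic length for the 10 receptor genes, one point per library on a log axis, with ticks at the group means; for each gene bleomycin KO is on top, then bleomycin WT, then saline WT. Csf1r, Csf2ra and Ifngr1 lead in every group and Il6ra is last, while Il7r at 9.72 in saline WT is well below its level in both bleomycin groups; Ifngr2 in saline WT 2, at 0, is not drawn.

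Levels between genes were compared per kb of exonic length. In bleomycin KO the order of means was Csf1r (306 CPM per kb), Csf2ra (288), Ifngr1 (263), Il10ra (102), Ifngr2 (78.0), Tgfbr1 (76.5), Il7r (49.5), Csf2rb (42.0), Tgfbr2 (36.1) and Il6ra (3.64). The libraries separated Ifngr1 from Il10ra, Il10ra from Ifngr2, Tgfbr1 from Il7r, and Tgfbr2 from Il6ra, and all other neighbours overlapped. In bleomycin WT the order was Csf2ra (371 CPM per kb), Csf1r (272), Ifngr1 (271), Il10ra (80.0), Tgfbr1 (62.0), Ifngr2 (60.7), Csf2rb (50.6), Il7r (41.6), Tgfbr2 (30.8) and Il6ra (9.14), and the one pair of neighbours without overlap was Ifngr1 and Il10ra. In saline WT it was Csf1r (313 CPM per kb), Ifngr1 (247), Csf2ra (202), Il10ra (118), Tgfbr1 (44.97), Ifngr2 (42.9), Csf2rb (31.6), Tgfbr2 (29.9), Il7r (9.72) and Il6ra (6.16), and all neighbours overlapped. Csf1r was above 98.9% of tested genes in bleomycin KO, 98.4% in bleomycin WT and 99.1% in saline WT. Il7r was above 91.2% in bleomycin KO, 87.3% in bleomycin WT and 69.6% in saline WT. Il6ra was above 46.4%, 61.8% and 60.2% in the same order of groups.

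Between the genotypes under bleomycin, 0 of the 10 receptor genes passed the test and 0 had groups without overlap. The background was 0% of tested genes called (647 had an unadjusted p under 0.05), and 0.905% lay wholly above and 0.594% wholly below. The median log2 fold change of the 10 was 0.20, with 6 of 10 positive, beside -0.01 over all tested genes. In bleomycin WT against saline WT the median was 0.44 with 8 of 10 positive, beside 0.08, and in bleomycin KO against saline WT it was 0.30 with 7 of 10 positive, beside 0.04. Without saline WT 2 and bleomycin WT 4 the 3 medians of the 10 were 0.00, 0.06 and -0.05 in the same order, beside -0.02, -0.14 and -0.15 over all genes then tested.

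**Figure D5:**
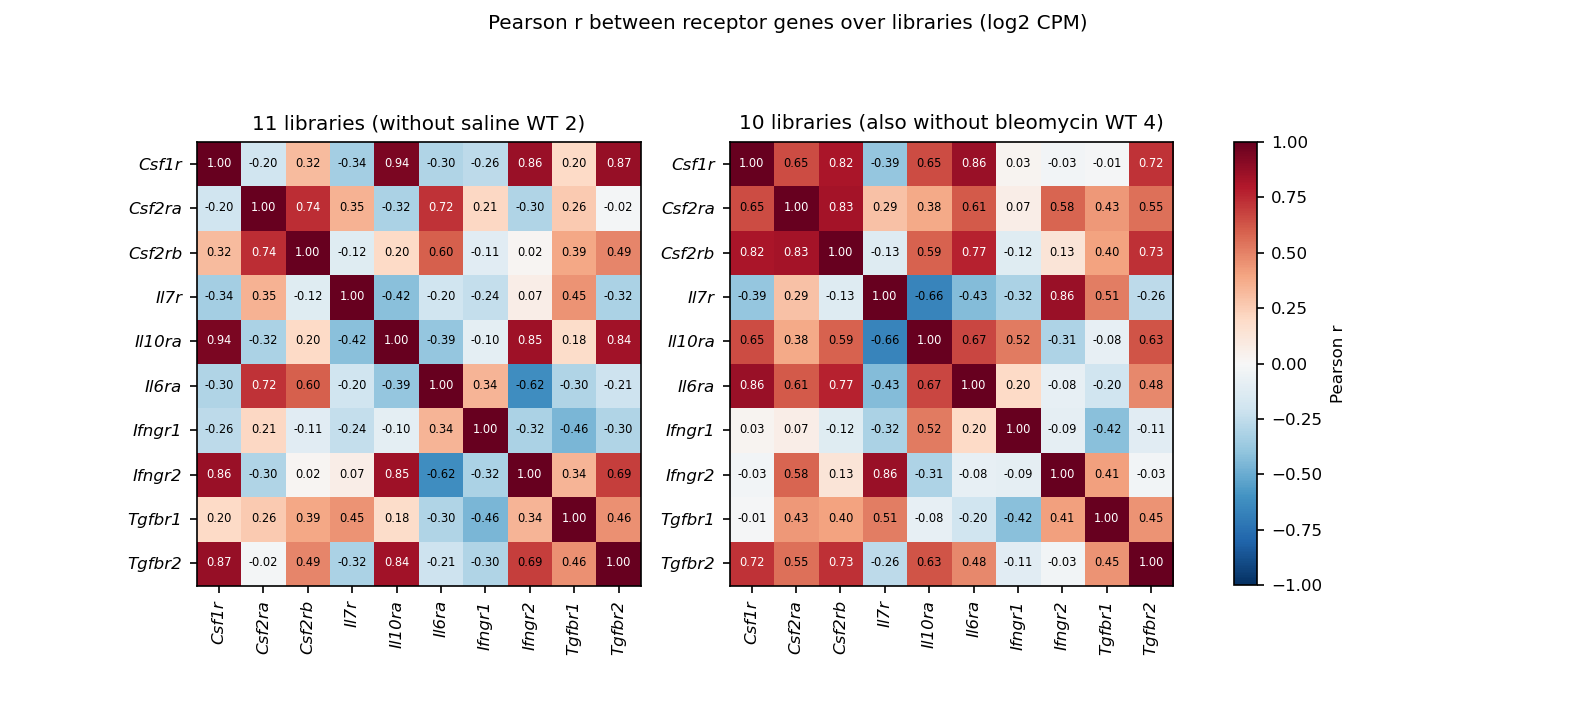
Pearson r of log2 CPM between each pair of the 10 receptor genes, over 11 libraries (left, without saline WT 2) and 10 libraries (right, also without bleomycin WT 4), on a colour scale from -1 to 1. Csf1r with Ifngr2 is 0.86 on the left and -0.03 on the right, while Csf2ra with Csf2rb is 0.74 and 0.83.

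How the receptor genes varied together depended on bleomycin WT 4. Among the 10, it was the lowest bleomycin library for Csf1r, Il10ra, Ifngr2, Tgfbr1 and Tgfbr2 and the highest for Il6ra and Ifngr1. Over 11 libraries Csf1r followed Il10ra (r = 0.94), Tgfbr2 (0.87) and Ifngr2 (0.86); over 10 libraries these were 0.65, 0.72 and -0.03. Csf1r with Il6ra changed sign, at -0.30 over 11 libraries and 0.86 over 10. Pairs that form one receptor varied: Csf2ra with Csf2rb gave 0.74 and 0.83, Tgfbr1 with Tgfbr2 gave 0.46 and 0.45, and Ifngr1 with Ifngr2 gave -0.32 and -0.09. These coefficients describe 11 or 10 libraries that share treatment, depth and scaling.

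The genes nearest to the other receptor genes over 11 libraries were found by the same measure as for Il7r. Csf1r was followed by Flcn, which encodes folliculin (r = 0.985), and the ubiquitin ligase gene Trim25 (0.979). Csf2ra was followed by the RNA-binding protein genes Hnrnpu (0.951) and Pabpc1 (0.939), and Csf2rb by Tmbim6 (0.923) and Tgfb1 (0.910). For Il10ra they were Myadm (0.992) and Akna (0.991), and for Il6ra Kdm2a (0.936) and 4933440N22Rik (0.931). Ifngr1 had Arhgdib (0.959) and Ddx39 (0.957), and Ifngr2 had Tspan31 (0.993) and Atp6ap1, a proton pump accessory subunit (0.992). Tgfbr1 had Uhrf2 (0.895) and Mapk8ip3 (0.865), and Tgfbr2 had Kdm4b (0.945) and Cnpy3 (0.943). Without bleomycin WT 4 these values ranged from 0.858 for Tgfbr1 with Mapk8ip3 to 0.972 for Csf2rb with Tgfb1.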

How the data were processed

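RNA of lung Cx3cr1+ macrophages was made into cDNA with SMART-Seq v4, which marks no strand, so antisense or overlapping genes cannot be told apart; libraries were Nextera XT and sequencing single-end, per the labels' protocols. GSNAP, Partek, limma, GRCm38 and mm10 appear in the submitters' processing notes. The authors deposited raw counts per Ensembl gene for 52636 genes in 12 libraries, and a gene table with symbols and exonic sizes; 11872 genes had no count. How multiply mapped reads were counted is not stated. Positions are from GENCODE vM21 (GRCm38).

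From the deposited counts, CPM was computed with TMM scaling, and per kb with the exonic size. edgeR 4.0.16 in R 4.3.3 tested all 12 libraries in 1 fit (filterByExpr by group, robust quasi-likelihood, group the only term), with Benjamini-Hochberg adjustment over all 16679 genes kept. Standard errors come from the F statistic, and intervals are 95%. The fit was tested on simulated counts, where it missed most of the smaller changes put in. A gene that was not called may therefore still differ. Alternatives used DESeq2 1.42.0, limma-voom 3.58.1 with and without quality weights, DESeq2 size factors, no filter, 8 libraries, a replicate block, each library left out, and 10 libraries. Every pair of libraries differed beyond sampling noise (chi-square over degrees of freedom at least 18.6), so none was counted as 1 library deposited again. Promoter windows are RefSeq's. Intervals and limits cover counting error and library spread only.

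Genes named are the 10 receptor genes, Il4ra, the 2 genes nearest each receptor gene by Pearson r, and part of those given by a rule. The rule gives the ligands and partner chains of each pathway list, its 2 smallest p per comparison, and the most abundant gene of each marker list. Not all of these were named, and of the most abundant marker genes Lyz2 alone was. Cd2, Cd3e, Irf1, Skil, Nrros, Mertk, Il5, Cx3cr1, Itgam and Cdh1 as well as genes at 0 were named after their values were seen. All 181 listed symbols were matched and 173 genes tested. The members and lists were chosen with earlier results of these data known, including the Il7r difference and the 2 libraries left out together.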

Additional observations from a re-analysis of the deposited data

Results flagged for a closer look

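In bleomycin KO, Csf2ra had 750 CPM in bleomycin KO 1, against 451 to 477 CPM in the other 3 libraries, so that 0.912 of the group's range lay between it and the nearest of them. Csf2rb had 330 CPM in the same library, against 143 to 168 CPM in the others, and that share was 0.869. Both are above Dixon's critical value for 4 samples. They are 2 of 33 groups screened (11 genes in 3 groups), and chance passes the value in about 1 of 20 groups, so this number is near what chance gives. Csf2ra and Csf2rb are the chains of 1 receptor. The same library was also the highest of its group for Csf1r, Il10ra, Il6ra, Tgfbr1, Tgfbr2 and Il4ra, but not for Il7r, Ifngr1 and Ifngr2.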

How the results depend on the processing

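Of 600 log2 fold changes of the 10 receptor genes under alternatives, 541 had the same sign and side of the threshold, 9 newly passed it (all Il7r), 0 ceased to pass and 50 had the other sign, all of them uncalled. The cause of each change was not tested. DESeq2 size factors moved the median of all tested genes to -0.10 in bleomycin WT against saline WT and -0.12 in bleomycin KO against saline WT, where it was 0.08 and 0.04.

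In bleomycin WT against saline WT 4 genes were called in the main fit; there were 512 with DESeq2, 319 with quality weights, 1 with DESeq2 size factors, 780 without a filter, 0 with 8 libraries (1473 at an unadjusted p under 0.05), 2 with the replicate block, 81 in 10 libraries, and 1 to 11 with a replicate left out. In bleomycin KO against saline WT 3 were called; there were 370 with DESeq2, 12 with limma-voom, 232 with quality weights, 1 with DESeq2 size factors, 694 without a filter, 1 with 8 libraries, 1 with the block, 121 in 10 libraries, and 0 to 18 with a replicate left out. Between genotypes 0 were called; there were 243 without a filter (242 lower) and 0 with a replicate left out, and 0 with DESeq2.

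Il7r was the 1 receptor gene called by DESeq2 (adjusted p 0.000464 in bleomycin WT and 4.13e-05 in bleomycin KO against saline WT), with quality weights (0.00748 and 0.00652), in 10 libraries, and, in bleomycin KO against saline WT, without a filter (adjusted p 0.0437), without bleomycin WT 4 (0.0259) and without saline WT 2 (0.0456), so 0 to 1 were called there with a replicate left out and 0 in the other comparisons. Its log2 fold change was 1.98 to 2.26 in bleomycin WT and 2.26 to 2.52 in bleomycin KO against saline WT with a replicate left out, and 2.08 and 2.34 with the block (adjusted p 0.599 and 0.484). The replicate numbers showed no sign of pairing the samples: 0 of 12 same-number pairs had r over 0.1 (-0.20 to 0.07), and 0 of 12 libraries correlated best with their own number. With 4 libraries per group, saline WT 2 and bleomycin WT 4 among them, this cannot exclude a pairing.

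The other signs were these. In bleomycin WT against saline WT, Il6ra was -0.89 with quality weights and -0.14 in 10 libraries; Ifngr1 was -0.045 with DESeq2, -0.037 with limma-voom, -0.11 with quality weights, -0.037 with DESeq2 size factors and -0.35 in 10 libraries; Tgfbr2 was -0.19, -0.23, -0.18 and -0.18 under the same 4 tools, -0.025 with 8 libraries, -0.12 with the block and -0.084 in 10 libraries. In bleomycin KO against saline WT, Csf1r was 0.020 without a filter, Ifngr1 was -0.058 with DESeq2, -0.034 with limma-voom, -0.11 with quality weights, -0.051 with DESeq2 size factors and -0.27 in 10 libraries, and Tgfbr2 was -0.095 in 10 libraries. Between genotypes, Csf2ra was 0.072 and Csf2rb 0.064 with quality weights, Ifngr1 was 0.0031 with limma-voom, 0.022 without a filter, 0.018 with the block and 0.078 in 10 libraries, where Csf1r was -0.16 and Tgfbr2 -0.011.

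With a replicate left out, bleomycin WT against saline WT ranged over -0.71 to 0.25 for Csf1r, -0.071 to 0.89 for Il6ra, -0.15 to 0.57 for Ifngr1 and -0.51 to 0.37 for Tgfbr2. Between genotypes the ranges were -0.19 to 0.71 for Csf1r, -0.63 to 0.20 for Csf2rb, -0.0032 to 0.70 for Il10ra, -2.10 to -0.54 for Il6ra, -0.12 to 0.061 for Ifngr1 and -0.045 to 0.79 for Tgfbr2. In bleomycin KO against saline WT they were -0.13 to 0.19 for Csf1r, -0.40 to 0.20 for Il10ra, -0.19 to 0.53 for Ifngr1 and -0.00068 to 0.58 for Tgfbr2. Depth limits saline WT 2, where 3 counts are worth 32.4 CPM.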
